A study of Homo sapiens with 8 samples.

Results

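RNA in microvesicles shed by HEK 293T, an established line from human embryonic kidney, was compared between cultures making the TRACE pair of proteins and cultures making its control pair. The comparison used the 4 microvesicle libraries of a series of 8: replicates II and III with TRACE, and replicates I and II with the control. They were chosen by their sample labels alone, and the 4 cell lysate libraries of the same groups served only as a reference for level. The TRACE cells were transfected, by a lipid reagent, with GFP-C-YTHDF1 and GBP1-CD9. The control cells received GFP and GBP1-CD9, so the CD9 fusion and GFP were present in both groups and only the YTHDF1 part was missing from the control. Both groups grew with serum depleted of exosomes and with RNase A in the medium. Vesicles came from that medium by serial ultracentrifugation and filtration, so they are a mixed preparation and not a purified class. The labels do not say whether the replicates were separate cultures, so a p-value here speaks only of how far these libraries spread, and that spread may be technical.

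YTHDF1 is a cytoplasmic protein that binds N6-methyladenosine (m6A), a methyl mark on internal adenosines of messenger RNA that is found most often near stop codons. CD9 is a tetraspanin, a membrane protein abundant on small vesicles that leave the cell. A GFP-binding protein joined to CD9 can hold a GFP fusion at that membrane, so that RNA bound to the fusion may leave with the vesicle, and the question of this comparison is which RNA differs when YTHDF1 is part of the fusion.

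The deposited values are read counts on gene features of GENCODE 19, and all of them lay on chromosome 1. The feature IDs could not be taken as gene names. By ID, RPL11, a protein of the large ribosomal subunit, had 0, 1, 0 and 0 counts in the 4 lysates, and CDC42, a small GTPase that cells use widely, had 0, 0, 0 and 1. At the same numbers on GRCh38, the features overlapping exons of RPL11 had lysate means of 4736 and 6720 CPM (counts per 1000000 counts of a library). Features are therefore named below by the GRCh38 genes (RefSeq GRCh38.p14 spans and GENCODE 44 exons) at their coordinates, and positions given with a gene are its GRCh38.p14 span. YTHDF1 and CD9 lie on other chromosomes, so the labels could not be checked against the genes of the constructs. In the lysates 94.8% to 95.7% of counts fell on the 1791 of 5361 features that overlap a GRCh38 exon. Only RNA that happened to fall inside a counted interval is seen, and the processed pseudogenes of chromosome 1 can hold reads of genes on other chromosomes.

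The vesicle libraries were shallow and unequal. TRACE II held 34602 counts, TRACE III 64025, control I 238416 and control II 479140. The 2 most abundant features, one at LINC01409 and one at a pseudogene cluster, took 11.7% and 28.2% of the TRACE counts and 41.8% and 68.5% of the control counts. They were left out before scaling, which left 30552, 45946, 138827 and 150999 counts. Levels are given as CPM of these totals after TMM scaling, a correction for RNA composition. The TMM factors were 0.566 and 1.20 for TRACE and 1.31 and 1.12 for the controls. One count stood for 61.1 CPM in TRACE II, 21.2 in TRACE III, 6.74 in control I and 7.03 in control II.

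No single feature could be called different between TRACE and control vesicles. Among 1304 features tested with edgeR's quasi-likelihood test on the 4 libraries, 0 passed a Benjamini-Hochberg adjusted p of 0.05 (0% of those tested), and the smallest adjusted p was 0.187. At an unadjusted p under 0.05, 72 features (5.52%) were higher and 67 (5.14%) lower in TRACE. DESeq2 on the same libraries called 82, of which 58 were higher and 24 lower, and the other settings called between 0 and 69. The biological coefficient of variation was 0.838. As a description, 121 features (9.28%) were at least 4-fold higher in TRACE with no overlap between the groups, and 147 (11.3%) were at least 4-fold lower with no overlap. These are called the TRACE-higher and the control-higher features below. With counts scaled by library size alone they numbered 90 and 200, since the median log2 fold change of all features moved from -0.20 to -0.61. The features nearest the 4-fold line lay at log2 fold changes of 2.03 inside and 1.99 outside on the TRACE side, and at -2.01 and -1.997 on the control side.

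Replicates of a group resembled each other only loosely. Across the 1304 features the Spearman correlation was 0.397 between the TRACE replicates and 0.375 between the control replicates. Between a TRACE and a control library it ranged from 0.159 to 0.264. The 4 lysates gave correlations between 0.83 and 0.893 over the same features. These values are across features, which are not independent replicates, and whether the low depth of the vesicle libraries lowered them was not tested.

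**Figure D1:**
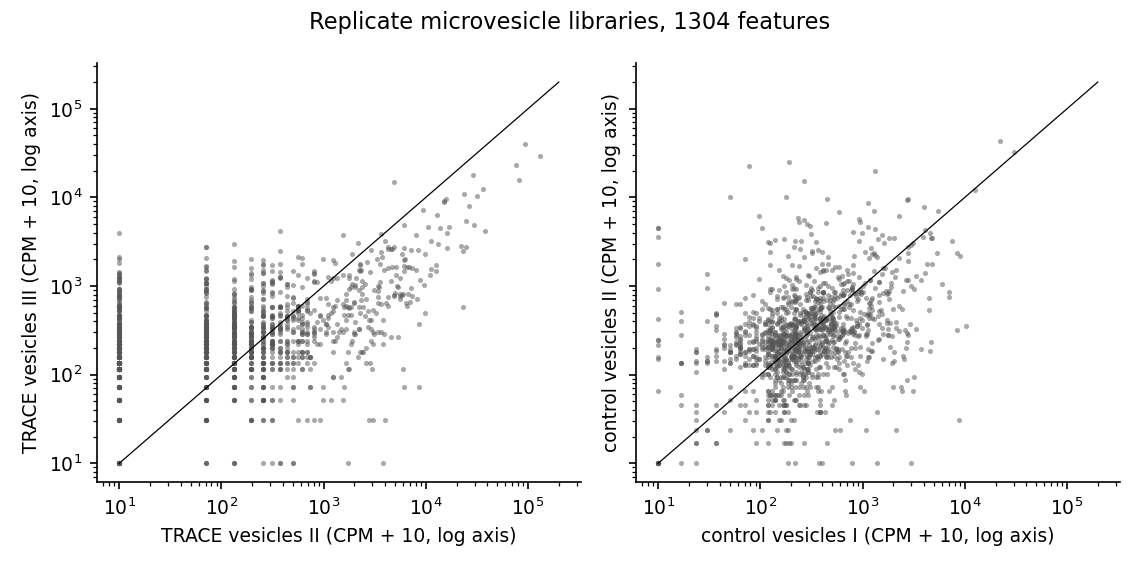
Each point is one of 1304 features, with its TMM-scaled CPM plus 10 in the first replicate on the x axis and in the second on the y axis (both log axes), TRACE at left and control at right. The line marks equal values. In TRACE II the abundant features lie above their level in TRACE III, and many features of TRACE III have 0 counts in TRACE II.

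TRACE vesicle libraries held a larger share of counts on features that overlap annotated exons than control vesicle libraries did. All counts of such a feature enter the share, whether the reads lay on the exon or beside it. Features that overlap a GRCh38 exon took 89.1% of counts in TRACE II and 78.1% in TRACE III, against 67.2% in control I and 66.1% in control II. The mean was 83.6% ± 7.79 (SD, n = 2) in TRACE and 66.7% ± 0.785 (SD, n = 2) in the control, and both TRACE libraries lay above both controls. With 2 libraries against 2, the two-sided exact permutation test cannot give a p below 0.3333, which is the value found. Features inside genes that touch no exon took 21.3% of the control counts in control I (exact binomial 95% interval 21.1% to 21.5%) and 20.7% in control II (20.5% to 20.9%). In TRACE this class took 8.06% in II (7.76% to 8.37%) and 13.4% in III (13.1% to 13.8%), and in the lysates 3.17% to 3.76%. Features outside any gene took 2.85% and 8.49% in TRACE, 11.4% and 13.1% in the controls, and 1.11% to 1.46% in the lysates. Intervals cover counting error only, since PCR reads without molecular identifiers are not independent molecules.

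**Figure D2:**
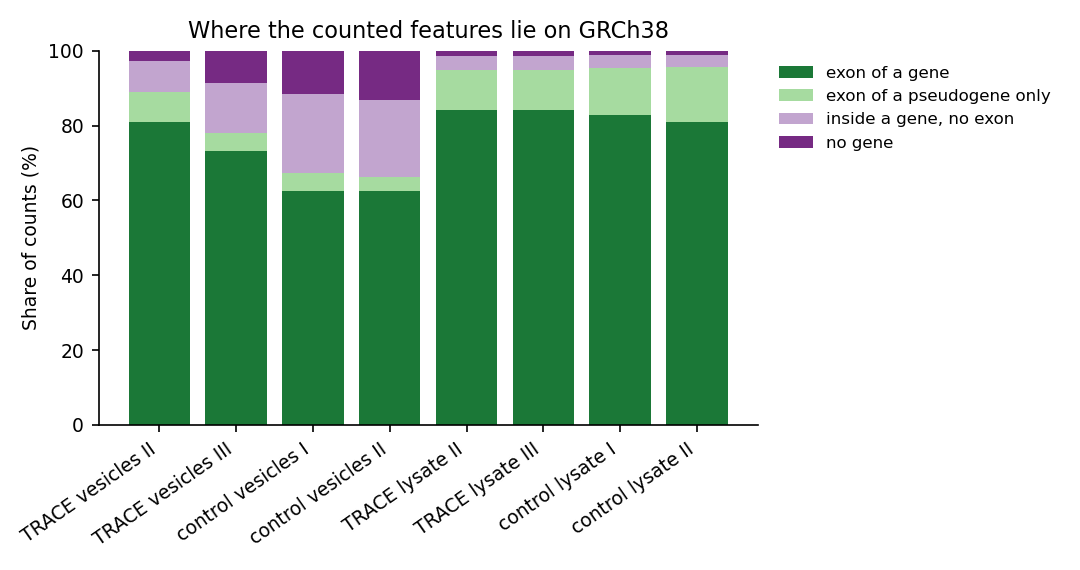
Stacked bars show the share of counts (%) in each of the 8 libraries by what the counted feature overlaps on GRCh38, after the 2 most abundant features were left out. Features that touch an exon of a gene, with all their reads on or off that exon, take 80.8% and 73.1% in the TRACE vesicles, 62.5% in each control vesicle library and 80.9% to 84.1% in the lysates.

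The features that were higher in TRACE vesicles had high levels in the cells. The 121 TRACE-higher features had a median lysate level of 1000 CPM (interquartile range 268 to 2928), while the 147 control-higher features had 22.8 CPM (8.53 to 51.6) and all tested features 62.6 CPM. Of the TRACE-higher features, 105 (86.8%) overlap an exon and 104 (86.0%) reached 50 CPM in the lysates. Of the control-higher features 77 (52.4%) overlap an exon and 37 (25.2%) reached 50 CPM. Over all tested features these shares were 64.5% and 54.8%. Arranged by lysate level, 61 of the 163 features above 1000 CPM (37.4%) were TRACE-higher and 1 (0.613%) was control-higher. Among the 566 features above 0 and up to 50 CPM, 15 (2.65%) were TRACE-higher and 108 (19.1%) control-higher. The median log2 fold change was 1.51 in the first of these classes and -0.59 in the second. The lysates were not used to choose these features.

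The same features took similar shares of both kinds of lysate. The 121 features together took 51.8% of counts in TRACE II and 29.8% in TRACE III, against 5.38% in control I and 2.94% in control II. That difference was fixed by their choice from these same libraries. In the lysates the 121 features took 33.0% and 32.6% with TRACE and 31.3% and 32.5% with the control. For the 104 of them with at least 50 CPM in the lysates, the median log2 ratio of TRACE to control lysates was 0.10 (interquartile range -0.19 to 0.35), beside 0.13 for all 715 tested features at that level. The rank correlation of a vesicle library with the mean lysate was 0.527 and 0.536 in TRACE and 0.256 and 0.22 in the controls.

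The lysate levels of the 2 sets changed with the filter and with the libraries used. Without a filter on low counts 3677 features were tested, and the median was 183 CPM for 167 TRACE-higher features (67.7% with an exon) and 9.19 CPM for 584 control-higher ones. A minimum of 10 CPM in 2 libraries tested 2681 features and gave 143 CPM for 176 (67.1%) and 13.1 CPM for 444. With TRACE II left out the filter kept 2160 features, and the medians were 85.3 CPM for 246 (69.9%) and 13.9 CPM for 360. Without TRACE III it kept 2012, with 569 CPM for 206 and 20.8 CPM for 822. Without control I the filter kept 1257 features, and the medians were 569 and 20.4 CPM. Without control II it kept 1303, with medians of 678 and 22.8 CPM. Each library was also left out with the same 1304 features kept, a run added after seeing the data. Without TRACE II the medians were then 552 CPM for 125 TRACE-higher features (84.0% with an exon) and 28.3 CPM for 174 control-higher features. Over the 4 such fits they ranged from 552 to 760 CPM and from 27.8 to 34.9 CPM. When each library was thinned to 30552 counts, 93 TRACE-higher features had a median of 1274 CPM and 73 control-higher features one of 39.8 CPM. In bulk libraries fewer vesicles of a kind and less RNA per vesicle cannot be told apart.

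**Figure D3:**
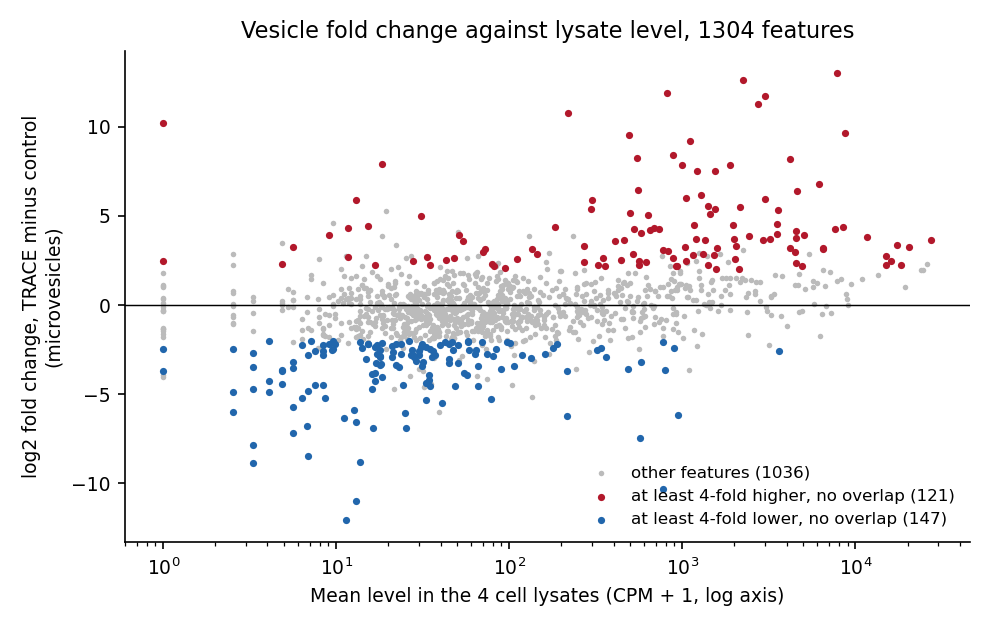
Each point is one of 1304 features, with the mean CPM plus 1 of the 4 lysates on the x axis (log axis) and the fitted log2 fold change of TRACE minus control microvesicles on the y axis. The 121 TRACE-higher features (red) lie mostly at the right, around a median of 1000 CPM, and the 147 control-higher features (blue) mostly at the left, around 22.8 CPM. Points far from 0 on the y axis include features with 0 counts in one group, whose fitted value depends on the prior count.

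The 12 features with the smallest p on the TRACE side, among those with a mean of at least 200 CPM and no overlap, had adjusted p between 0.187 and 0.239, so none passed. Of these, 4 were at 0 in both controls. MRPS14, a protein of the small subunit of the mitochondrial ribosome (chr1:175012958-175023425, minus strand), had 376 and 27 counts in TRACE II and III and 0 in both control libraries. Against the 3 counts that a total of 0 allows over the group, this was 614-fold higher, although the TRACE replicates themselves lay apart at 22956 and 572 CPM. The counted interval lies wholly in a MRPS14 exon, and its lysate mean was 7782 CPM. TIMM17A (chr1:201955503-201970664, plus strand), a subunit of the channel that imports proteins through the inner mitochondrial membrane, was named by 2 features. One had 51 and 42 counts in TRACE against 5 and 4 in the controls, a log2 fold change of 5.94 ± 1.73 (SE, edgeR, adjusted p = 0.239). The other had 32 and 31 against 6 and 2, a log2 fold change of 5.49 ± 1.56 (SE, edgeR, adjusted p = 0.215). On the CPM scale the TRACE libraries lay at 3114 and 890 in the first and at 1954 and 657 in the second, above both controls but apart from each other. With 1 library left out the log2 fold changes ranged from 4.80 to 6.53 and from 4.53 to 6.26. Exons hold 381 of the 3111 counted bases of the first and 48 of the 657 of the second. Another TIMM17A feature, which also covers the pseudogene RPL10P4, had 32 and 30 against 133 and 37 counts and a log2 fold change of 1.15 ± 1.44.

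BOLA1 (chr1:149899568-149900795, plus strand), a mitochondrial protein of the BolA family, had 385 and 512 counts in TRACE against 16 and 5 in the controls. On the CPM scale these were 23505 and 10851 against 108 and 35.1, a log2 fold change of 7.88 ± 2.09 (SE, edgeR, adjusted p = 0.187), with a lysate mean of 1000 CPM. RABIF (chr1:202878282-202889149, minus strand), a partner of Rab GTPases in secretory traffic, had 488 and 232 counts in TRACE and 0 and 8 in the controls. Its log2 fold change was 9.20 ± 2.56 (SE, edgeR, adjusted p = 0.203). Its lysate mean was 1107 CPM, and its TRACE replicates lay at 29794 and 4917 CPM. RPF1 (chr1:84479266-84498352, plus strand), a nucleolar factor of large ribosomal subunit assembly, had 20 and 27 counts against 3 and 2, a log2 fold change of 5.58 ± 1.37. PUSL1 (chr1:1308597-1311677, plus strand), a pseudouridine synthase of the TruA family, had 133 and 33 against 3 and 2, a log2 fold change of 7.89 ± 2.14. The PUSL1 interval also holds exons of its neighbour ACAP3, and counting cannot separate them. Leaving out TRACE II lowered PUSL1 to 5.26 and RABIF to 7.42, while PUSL1 reached 8.72 without TRACE III. RABIF reached 12.93 without control II, where the lone control is at 0 and the value depends on the prior count. BOLA1 ranged from 6.95 to 8.77 and RPF1 from 4.97 to 5.99. Exons of the named gene hold 531 of the 2245 counted bases in the BOLA1 feature, 284 of 918 in that of RABIF and 245 of 1401 in that of RPF1. The files do not place a read on the exon or off it within an interval.

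ARID1A (chr1:26696015-26782104, plus strand), a subunit of the SWI/SNF chromatin remodelling complex, had 69 and 35 counts in TRACE and 0 in both controls in a feature that lies wholly in an exon. That was 159-fold higher against the floor of 3 counts. The lysate mean was 216 CPM, with 326 and 307 CPM in the TRACE lysates and 202 and 30.7 CPM in the control lysates. The other 2 tested ARID1A features did not share this difference, with 2 and 8 against 34 and 16 counts, and 0 and 17 against 20 and 16. Their log2 fold changes were -0.19 ± 1.11 and 0.73 ± 1.26. LRRC8D (chr1:89821032-89936611, plus strand), a subunit of the volume-regulated anion channel, had 10 and 8 counts against 2 and 1. The summed ratio was 27.4 (counting interval 8.01 to 145), and the lysate mean was 29.7 CPM. LRRC8D exons hold 110 of the 2987 counted bases of this feature. With all features of a gene summed, the log2 fold change fell from 10.77 to 3.19 for ARID1A, from 4.99 to 2.20 for LRRC8D and from 5.94 and 5.49 to 2.80 for TIMM17A. The first ARID1A value, with both controls at 0, depends on the prior count.

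In the remaining 3 features the named gene has no exon, or shares its exons' interval with other genes. The feature named HFM1 (chr1:91260766-91408007, minus strand) overlaps no exon of that helicase, and lies on FEN1P1, a pseudogene of the flap endonuclease FEN1. It had 225 and 215 counts in TRACE and 0 in both controls, 671-fold higher against the floor, with a lysate mean of 2248 CPM. The feature named CSMD2 (chr1:33513998-34165842, minus strand) lies in an intron and had 50 and 14 counts against 0 and 0. That was 97.6-fold higher against the floor, and this feature had 0 counts in all 4 lysates. The feature named MIR1302-2HG (chr1:29774-35418, plus strand) also covers exons of the pseudogene WASH7P and of DDX11L2, and had 45 and 19 counts against 2 and 5. Exons of MIR1302-2HG hold 253 of its 2073 counted bases.

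On the control side the 12 features chosen in the same way had adjusted p between 0.187 and 0.349. ADGRB2 (chr1:31727117-31764340, minus strand), an adhesion G protein-coupled receptor of brain, had 441 and 417 counts in control I and II and 0 in both TRACE libraries. The controls agreed closely on the CPM scale, at 2972 and 2931. With the floor of 3 counts for the group at 0, TRACE was 62.5-fold lower, and the lysate mean was 11.96 CPM. NOC2L (chr1:944203-959256, minus strand), a nucleolar protein that binds histones, had 311 and 213 counts in the controls and 0 in both TRACE libraries, 38.2-fold lower against the floor. Unlike most of this group it was well represented in the lysates, at a mean of 775 CPM. WNT9A (chr1:227918656-227947932, minus strand), a secreted Wnt ligand, had 117 and 244 counts against 1 and 0. PPFIA4 (chr1:203026491-203078736, plus strand), a liprin of synapses, had 171 and 21 counts against 0 and 0.

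ARHGAP30 (chr1:161046946-161069891, minus strand), a GTPase-activating protein, had 17 and 120 against 0 and 1. The non-coding LINC02767 (chr1:207958991-207968142, plus strand) had 209 and 34 against 1 and 0. Exons of the named gene hold 509 of 4011 counted bases in the ADGRB2 feature, 84 of 471 for NOC2L, 3141 of 4315 for WNT9A and 82 of 1528 for PPFIA4. For ARHGAP30 they hold 179 of 1720, and for LINC02767 2204 of 8708.

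The last 5 of these features overlap no exon of the gene that names them. VWA5B1 (chr1:20290875-20359518, plus strand) had 406 and 1345 counts in the controls, 0 in both TRACE libraries, and 1, 0, 2 and 0 in the lysates. It was 128-fold lower in TRACE against the floor. GRIK3 (chr1:36795527-37034515, minus strand), a kainate receptor subunit, had 17 and 76 against 0 and 0, 6.78-fold lower against the floor. ROR1 (chr1:63774017-64181498, plus strand), a receptor tyrosine kinase-like protein, had 42 and 188 against 1 and 1. LINC01397 (chr1:110082688-110109719, plus strand) had 589 and 1115 against 1 and 11, a log2 fold change of -5.23 ± 1.81 that ranged from -6.64 to -4.65 with 1 library left out. PLPPR5-AS1 (chr1:99004276-99148852, plus strand) had 81 and 53 against 0 and 1. All 5 had a lysate mean of 10.4 CPM or less. When features were summed to a GRCh38 gene, GRIK3 and ROR1 turned to log2 fold changes of 1.14 and 1.40.

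**Figure D4:**
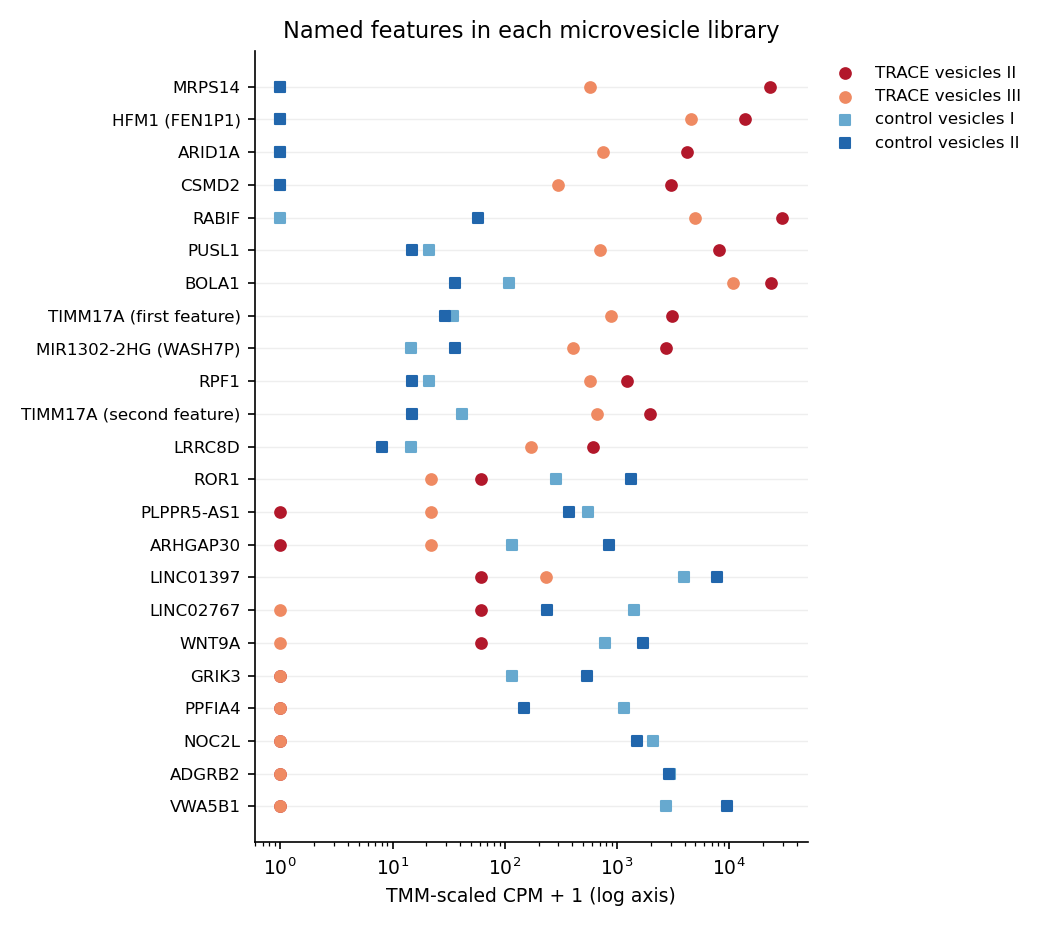
The named features described in the text are on the y axis, ordered by fitted log2 fold change, and TMM-scaled CPM plus 1 is on the x axis (log axis). Circles are the 2 TRACE and squares the 2 control microvesicle libraries, and markers at the same value lie on top of each other, as at 0 counts. In each of the 12 upper rows both circles lie to the right of both squares, and in the rows below them to the left, which the rule of choice required.

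Some of the most abundant differences lay in long features that cover several genes, and these were picked after their values were seen. The feature over LSM10 and STK40 had 2164 and 1395 counts in TRACE against 28 and 50 in the controls, which made it the highest of the TRACE-higher features by mean CPM. LSM10 is a part of the U7 particle that trims histone messages, and STK40 is a kinase-like protein. The log2 fold change of this feature was 8.22 ± 2.22 (SE, edgeR, adjusted p = 0.187), and its TRACE replicates lay at 132118 and 29566 CPM. The feature over FLAD1 exons, within a span shared with CKS1B, had 1259 and 1106 against 12 and 6, a log2 fold change of 9.64 ± 2.30. Its TRACE replicates lay at 76865 and 23441 CPM. FLAD1 makes the cofactor FAD, and CKS1B binds cyclin-dependent kinases.

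Among the other long features, replicates of a group lay far apart in some and closer in others. The one over ILF2, which binds double-stranded RNA, and SNAPIN had 1322 and 733 counts in TRACE, 1043 in control I and 105 in control II. The one over EIF3I, a translation initiation factor, and 5 neighbours had 477 and 846 against 660 and 75. The one over PSMD4, a ubiquitin receptor of the proteasome, and its neighbours had 403 and 256 against 337 and 84. On the control side, the feature over LINGO4 and TDRKH had 193 and 2848 counts against 5 and 1, and the one over ST7L and WNT2B had 167 and 1216 against 1 and 3. The one over CENPF, a kinetochore protein, and PTPN14 had 808 and 1010 against 13 and 66.

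A narrower naming was used for the other genes: a feature had to overlap exons of exactly one named gene and of no pseudogene. It gave 309 features of 267 genes, of which 30 (9.71%) were TRACE-higher and 31 (10.0%) control-higher. Of the 38 genes with 2 or more such features, 24 had all of them on the same side of 0. Beside the genes above, the TRACE-higher features included CHTOP (100 and 92 counts against 37 and 12), which works in messenger RNA export. They also included the lysosomal enzymes FUCA1 (159 and 109 against 48 and 45) and PPT1 (47 and 11 against 5 and 29). The 4-fold line applies to the fitted group difference, so single libraries can lie closer. For PPT1, TRACE III lay at 233 CPM and control II at 204. SSR2, a subunit of the translocon-associated complex of the endoplasmic reticulum, had 20 and 92 against 36 and 14. DEDD, a death effector domain protein, had 37 and 23 against 16 and 16.

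Of the 31 control-higher features of this kind, 21 had a lysate mean under 50 CPM. OPRD1, the delta opioid receptor, had 311 and 54 counts in the controls against 0 and 4 in TRACE, with a lysate mean of 34.0 CPM. SEMA6C, a semaphorin, had 215 and 35 against 2 and 0 at 33.2 CPM, and RHBG, an ammonium transporter, had 1344 and 308 against 3 and 65 at 117 CPM. TGFBR3, a co-receptor of TGF-beta, had 132 and 99 against 0 and 11 at 57.5 CPM. MAPKAPK2, a kinase downstream of p38, had 412 and 1375 against 1 and 11 at 76.8 CPM. These examples, and those of the TRACE side, were picked after their values were seen.

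The planned naming of the gene lists gave each feature to the gene of its largest overlap. The narrower naming was adopted after the values were seen, so both are given. Over all lists 28 features were TRACE-higher and 10 control-higher by largest overlap, and 12 and 3 under the narrower naming. Of all 1304 features tested 9.28% were TRACE-higher and 11.3% control-higher, and of the 309 exon-named features 9.71% and 10.0%. Members and lists were chosen with earlier results of these data known, so the list counts are not a test. Among the gene lists, mitochondrial proteins had the highest median. Of 33 listed genes, 5 were tested under the narrower naming with 6 features, and 6 of 6 had a log2 fold change above 0. Their median was 3.99, beside -0.20 for all features. Of the 6 features 4 were TRACE-higher and 0 control-higher, beside 9.71% and 10.0% of all exon-named features, and 0 passed the adjusted test. Besides MRPS14 and TIMM17A they were MRPL55, SDHB and AURKAIP1. MRPL55, of the large mitochondrial ribosomal subunit, had 597 and 587 counts in TRACE, 1315 in control I and 3 in control II. On the CPM scale its TRACE III value was 12441 and its control I value 8861. SDHB, the iron-sulfur subunit of succinate dehydrogenase, had 0 and 25 against 31 and 9, and AURKAIP1, a small mitoribosomal subunit protein, had 0 and 68 against 8 and 30, so both overlapped between groups. The 6 features were also abundant in the lysates, with a median of 2581 CPM and a range of 1093 to 16078. Over all 163 tested features above 1000 CPM in the lysates, the median log2 fold change was 1.51 and 61 (37.4%) were TRACE-higher. Whether the 6 differ from other features of such a level was not tested. By largest overlap the list had 13 features, 13 of 13 above 0, 5 TRACE-higher and 0 control-higher. Their median of 1.52 was near the 1.51 of all features above 1000 CPM, and their own lysate median was 1540 CPM. With library size alone 12 of those 13 were above 0.

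Of the stress response list 7 features were tested, 3 TRACE-higher and 1 control-higher, with a median log2 fold change of 0.93. By largest overlap there were 17, with the same counts, 9 above 0 and a median of 0.18. SESN2, a sensor in the control of mTORC1, gave 2 of the 3, with 57 and 46 counts against 7 and 42, and 21 and 11 against 26 and 4. In the second SESN2 feature TRACE III lay at 233 CPM and control I at 175. DNAJC8, an HSP40-type cochaperone, gave the third with 79 and 37 against 10 and 32. TP73, a relative of p53, was control-higher with 66 and 251 against 3 and 13. The proteasome and ubiquitin list had 9 features, of which 2 (UBE2J2 and PSMD4) were TRACE-higher and 1 (of UBR4) control-higher, with a median of 1.34. By largest overlap it had 26, of which 6 were TRACE-higher and 2 control-higher, 13 lay above 0 and the median was 0.41. With library size alone that median was -0.17 and that of the stress list -0.44, beside -0.61 for all features.

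The translation list had 7 features, of which 5 lay above 0, with a median of 1.34, and its only separated feature was NOC2L on the control side. By largest overlap 13 of 21 lay above 0, 2 were separated in each direction and the median was 1.13. Splicing and nuclear RNA-binding proteins had 1 of 5 TRACE-higher (ZNF326) and a median of 0.71, against 3 of 11 and 0.83 by largest overlap, where 1 was control-higher. Vesicle traffic had 1 of 9 (SSR2) and a median of 0.05, against 3 of 19 and 0.53. Chromatin had 1 of 7 (ARID1A) and a median of 0.67, against 1 of 29 and 0.004, with 1 control-higher. The cytoskeleton list had 0 of 8 separated and a median of 0.18. By largest overlap its median turned to -0.47, with 2 of 26 TRACE-higher and 1 control-higher. Single features in such short lists are to be read against the 9.71% of all exon-named features that were TRACE-higher.

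Ribosomal proteins were tested through RPL11 alone, whose features had 92 and 36 counts against 598 and 601, and 105 and 30 against 575 and 505. Their log2 fold changes were -0.38 ± 1.56 and -0.08 ± 1.59, and the TRACE replicates lay on both sides of the controls on the CPM scale. The single feature of the m6A list was HNRNPU, a nuclear RNA-binding protein, with 3 and 75 against 124 and 38 and a log2 fold change of 0.71 ± 1.42. NOTCH2, PKLR and LINC01128, each the only tested member of the surface membrane, metabolic and non-coding lists, had values of -0.24, -1.95 and 0.51. By largest overlap these lists had 8, 11 and 2 features with medians of -1.12, 0.11 and 1.25, so the metabolic list changed sign. Markers of blood, skin and liver had 0 tested features under this naming. By largest overlap blood had 3 features (CSF3R, CD53 and CD48), skin 2 and liver 0, and 1 of them, in CD53 but on no exon of it, was control-higher with 29 and 22 against 0 and 3.

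**Figure D5:**
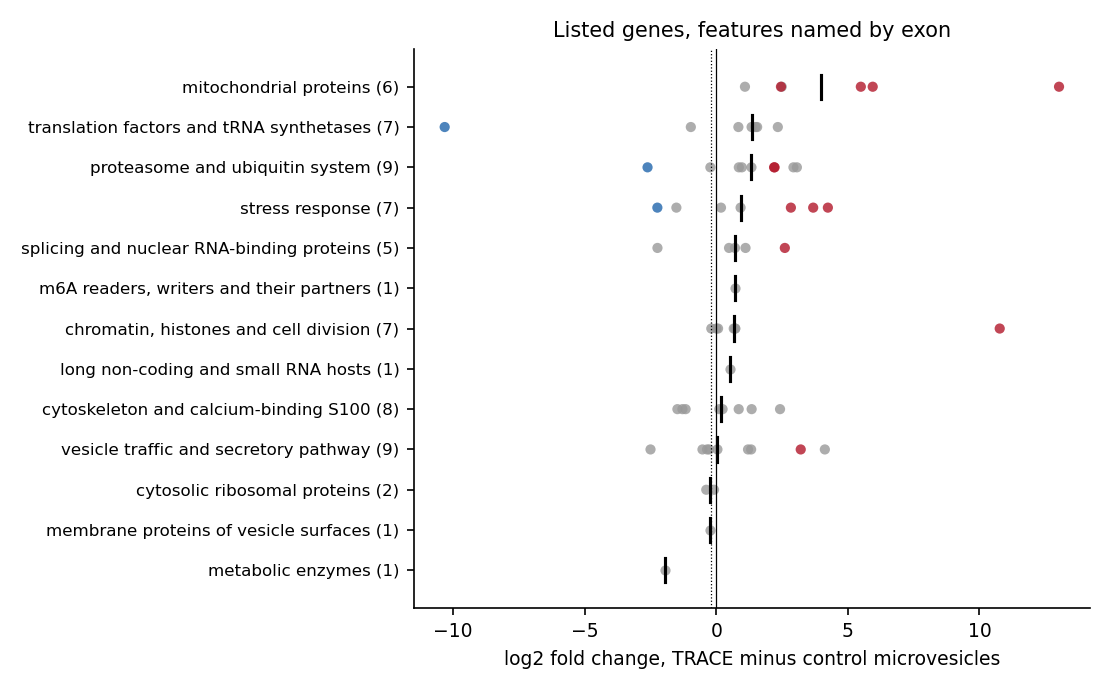
Each point is a feature of a listed gene, named by its exons, with its log2 fold change of TRACE minus control microvesicles on the x axis and the list (number of features) on the y axis. Red marks the TRACE-higher and blue the control-higher features, short black bars are list medians and the dotted line is the median of all 1304 features at -0.20. The mitochondrial list has all 6 points right of 0, around a median of 3.99.

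YTHDF1 reads m6A, whose commonest consensus is written GGACT in DNA letters, so the letters were searched on the sense strand of the canonical GENCODE 44 transcript of each gene named by exons. They were present in 26 of 28 genes with a TRACE-higher feature (92.9%), in 25 of the 28 with a control-higher feature and a coding transcript (89.3%) and in 232 of 251 of all those tested (92.4%). Among all 19869 protein-coding transcripts the share was 87.8%. The median density was 1.17 per kb (interquartile range 0.704 to 1.5), 1.00 per kb (0.557 to 1.68) and 0.999 per kb (0.617 to 1.41) in the same order, so these sets covered much the same range. Median transcript length was 2314, 3999 and 3873 bases. The letters are a description of the sequence and do not show methylation or binding.

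The match nearest to the stop codon is shown for genes on which the comparison turns, with GGACT in capitals and 10 bases on each side, from the GENCODE 44 transcripts mapped to GRCh37. The first 6 were higher in TRACE and the last 2 in the control.
TIMM17A: aatatcagtaGGACTtctttcctag
MRPS14: cttttctcttGGACTtaacaaacat
BOLA1: tcgtttcgagGGACTgagcccccta
RPF1: aaccccaaatGGACTtattttgagt
RABIF: gtaactatgaGGACTtctgcttctg
ARID1A: tgtcctggacGGACTcctacactgg
ADGRB2: gtgccacgctGGACTgcccactgca
WNT9A: acacctgcaaGGACTgagaggcttt
In TIMM17A the match begins on the last base of the stop codon. In ADGRB2, higher in the control, it begins 11 bases after the stop codon's last base, in MRPS14 197 bases after it and in WNT9A 507. In RABIF it lies 2436 bases after it, in the 3′ untranslated region. In BOLA1, RPF1 and ARID1A the nearest match lies in the coding sequence, beginning 179, 431 and 599 bases before the last base of the stop codon. Matches close to the stop codon thus occurred in genes of both directions.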

How the data were processed

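RNA of 8 libraries, made with SMART-Seq2 and Nextera per the labels' protocols, was aligned with STAR (version not given in the sources used here) to hg19, per the submitters' processing notes. The authors counted reads with featureCounts 1.6.4 on GENCODE 19 with strand setting 2, per the file headers. The kit does not mark strand, so antisense genes cannot be told apart. As deposited, values are whole-number counts. Of 63568 features, 5363 lie on chromosome 1, 4024 had a count, and the count elsewhere was 0. The sources used here do not say what the aligner's index held.

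The R1 and R2 columns of a library, whose meaning is not stated, were added. The 2 most abundant features were left out. The 4 vesicle libraries were fitted alone with edgeR 4.0.16 (TMM, filterByExpr, quasi-likelihood, Benjamini-Hochberg over 1304 features), with 2 residual degrees of freedom and a prior of 9.5. A fold against a group at 0 is taken against a floor of 3 counts over the group. It leaves out the spread between libraries and is not a lower bound. Group means of 2 libraries are given with both values. Level and density comparisons without a p are descriptions.

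Names come from GRCh38 coordinates in RefSeq GRCh38.p14 and GENCODE 44. The rule for named features took, per direction, the 12 smallest p among features whose higher group averaged 200 CPM or more, with no overlap between groups, the same direction in the R1 and R2 columns and the span of 1 named gene, since fewer than 5 passed the threshold; 1 of these is not reported here. Lists used the narrower exon naming, adopted after the values were seen. Members and lists were chosen with earlier results of these data known. Alternatives were other scalings and filters, limma-voom (limma 3.58.1), DESeq2 1.42.0, each column, thinning, each library left out (also with the same features kept, added after seeing the data), all 8 libraries and sums per gene. The steps were tested on simulated data. Other tools were scipy 1.17.1, numpy 2.4.6 and pandas 2.3.3 under Python 3.11.15, with matplotlib 3.10.9 for figures and R 4.3.3 for the fits.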

Additional observations from a re-analysis of the deposited data

How the results depend on the processing

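The number of features called was 0 with DESeq2-type or upper-quartile factors, with the 2 most abundant features kept, after thinning, with features summed to GRCh38 genes and with each library left out. It was 3 with library size alone, 17 without a filter on low counts, 12 with a minimum of 10 CPM in 2 libraries (a filter that kept 2681 features), 82 with DESeq2, 6 with limma-voom, 23 and 19 with the R1 or R2 columns alone, and 69 with the spread taken over all 8 libraries. The causes were not tested. Control-higher features numbered 584 without a filter, 444 with the 10 CPM minimum, 95 with R2 alone and 73 after thinning. With features summed to genes 48 were TRACE-higher and 51 control-higher, out of fewer features tested (513). Leaving out 1 library gave 153 to 246 TRACE-higher and 232 to 822 control-higher features; the ends were without control II and TRACE II, and without control I and TRACE III. With the same 1304 features kept, an alternative chosen after seeing the data, the counts were 125 to 188 (183 without TRACE III, 188 without control I) and 167 to 442 (442 without TRACE III). The TRACE-higher share of separated features was 45.2%, and became 31.0% with library size alone and 56.0% after thinning. It was 28.4% with the 10 CPM minimum, 22.2% without a filter on low counts and lower still without TRACE III. Of the named fold changes under the alternatives, 407 kept their direction and did not pass the threshold, and 70 passed it. The other 2 reversed with features summed to genes (GRIK3 1.14 and ROR1 1.40). Only features that a setting tested are counted. The 407 include LRRC8D, PPFIA4, PLPPR5-AS1, GRIK3 and ARHGAP30 under DESeq2, which gave them no adjusted p. Summing to genes also moved HFM1 from 12.66 to 4.98, CSMD2 from 10.20 to 2.80 and WNT9A from -5.87 to -3.74, without a change of direction or of side. Under both namings of the gene lists 0 features passed the adjusted test, and the medians of the cytoskeleton and metabolic lists changed sign between them. No paired analysis was possible because the compared groups share only the numeral II. Depth limits the TRACE side most: in TRACE II a single count stood for 61.1 CPM.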
